A study of Mus musculus with 6 samples.

Results

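The cytochromes P450 outside bile acid synthesis were measured by 42 probe sets for 36 genes, out of 12488 probe sets on the array. A probe set is a group of short probes made to report 1 transcript. The members are all probe sets to which the platform annotation gives a single gene symbol that starts with Cyp and a digit. Cyp7a1, Cyp7b1, Cyp8b1, Cyp27a1 and Cyp51 were left out by name, and 7 probe sets with several P450 symbols are described apart from the members. The mice were wild-type C57BL/6J males, 8 to 10 weeks old, and each array held liver RNA of 1 mouse. BDL, bile duct ligation under methoxyflurane anaesthesia, blocks bile outflow, and it was done in 3 mice 1 day before their livers were taken. The 3 control mice had sham surgery without ligation and were also taken 1 day later. Replicates are numbered as in the labels: 1, 12 and 3 for BDL, and 1, 2 and 3 for sham. Signals of single mice are given in that order.

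Cytochromes P450 are heme enzymes that use molecular oxygen and electrons from a redox partner to hydroxylate or epoxidize their substrates. Most microsomal members take electrons from P450 oxidoreductase, and mitochondrial members take them from ferredoxin. Hepatocytes are the main site of families 1 to 3, which oxidize drugs, pollutants and steroids, and of family 4, which hydroxylates fatty acids. Many of these genes are induced through receptors that sense foreign compounds, bile acids or fatty acids: the aryl hydrocarbon receptor AhR, the nuclear receptors CAR and PXR, and PPAR alpha. Families with higher numbers mostly act on steroids, vitamin D and retinoic acid, and several of them work mainly outside the liver.

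No P450 probe set passed the adjusted threshold 1 day after BDL, and every interval of a difference included no change. Cyp3a11, an abundant drug and bile acid hydroxylase, had all 3 BDL signals above all 3 sham signals, 1.47-fold apart. Cyp2f2, which activates naphthalene, had all 3 BDL signals below all 3 sham signals, 1.34-fold apart. Cyp1a2, which oxidizes caffeine and aromatic amines, had the widest difference among the members, 1.75-fold lower in BDL with overlapping groups. Fold values here and below are ratios of geometric mean signals after low signals were raised to a floor of 152.7.

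Of the 42 member probe sets, 35 for 32 genes were tested, since at least 3 of 6 arrays exceeded the floor. With limma's moderated test and Benjamini-Hochberg adjustment, 0 of the 35 passed an adjusted p of 0.05, and 0% of the 9542 probe sets tested in all did. The lowest adjusted p among members was 0.832. An unadjusted p under 0.05 was reached by 0 members, where 5.78% of all tested probe sets fell under that value, 3.4% as higher and 2.39% as lower. The groups were apart, with all BDL signals on 1 side of all sham signals, for 1 member higher and 1 lower. Over all tested probe sets 6.32% were apart as higher and 4.32% as lower. With 1 member each way, the counts are too small to tell the members' share from these. Differences of more than 1 on the log2 scale, that is over 2-fold, were seen for 0 members and 5% of all tested probe sets.

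The median log2 difference, BDL minus sham, was -0.11 over the 35 members and -0.01 over all tested probe sets. Differences were positive for 12 members and negative for 23, where 48.8% of all tested probe sets were positive and 51.2% negative, and they ranged from -0.81 to 0.68. The 95% interval of the difference lay within 2-fold in either direction for 13 members and within 4-fold for 32, where the limits are not adjusted for the number of members. Smaller changes could therefore not be told from none at 3 mice per group. The spread between mice of a group was a median SD of 0.43 on the log2 scale for members and 0.44 for all tested probe sets. In 20 of the 35 members the highest of the 6 signals was more than 2 times the lowest.

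**Figure D1:**
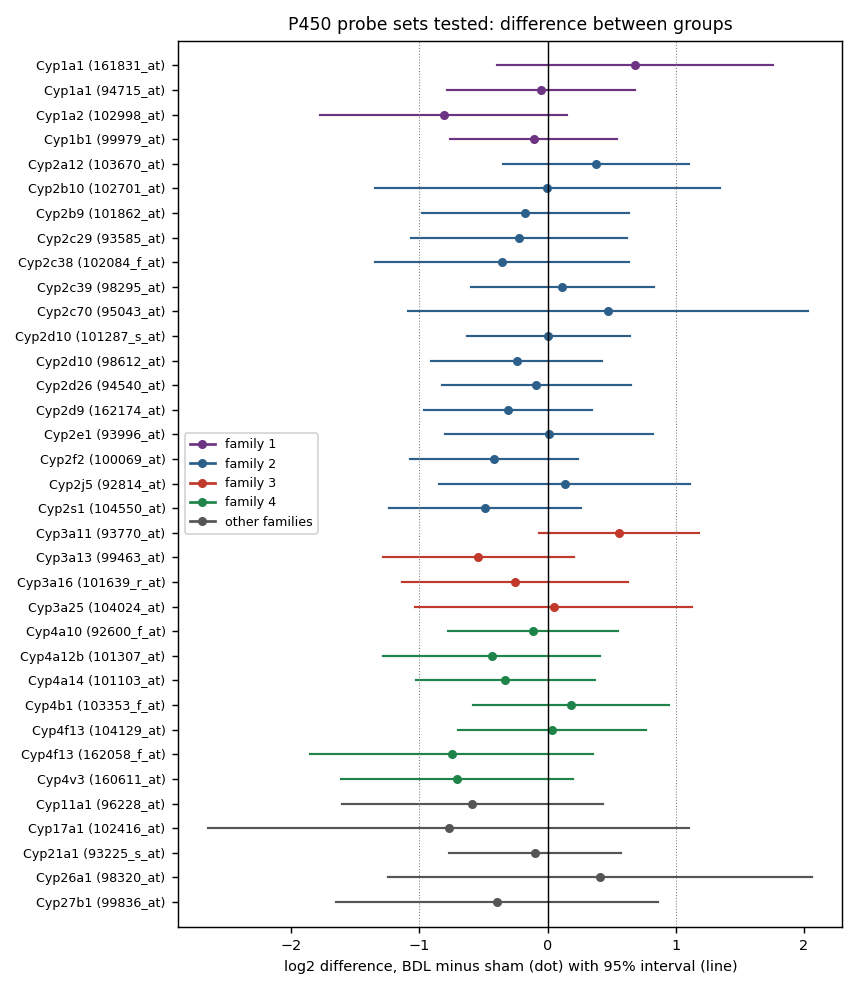
Log2 difference between BDL and sham for the 35 tested P450 probe sets, with dots for the estimate and lines for the 95% interval from limma (3 against 3 mice), coloured by family. All 35 intervals cross 0, and those of Cyp17a1, Cyp2c70 and Cyp26a1 are the widest, reaching past a dotted line that marks 2-fold.

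The arrays differed in ways that touch these values. On sham replicate 1 dim probe sets read higher than elsewhere, with a 10th percentile of 135 where the other arrays had 33.7 to 62.3. At or under the floor were 4 of the 42 members there and 8 to 11 on each other array. Among the 27 tested members above the floor on all arrays, it gave the lowest of the 3 sham signals 16 times. Sham replicate 3 gave the highest sham signal 15 times. The median deviation of the members from the mean of the sham arrays was -0.04, -0.11 and -0.18 on BDL replicates 1, 12 and 3, and -0.11, -0.04 and 0.16 on sham replicates 1, 2 and 3. The BDL arrays thus stood at or near the lower sham arrays. Without sham replicate 1, 1 member was higher and 3 were lower at an unadjusted p under 0.05, and 0 of them passed the adjusted threshold. The count of all probe sets under that p also moved with the array left out, from 308 to 1176, against 552 with all arrays. Of the marker genes of hepatocytes, 7 were tested, Alb and Apoa1 among them, and 0 were at the floor on all arrays. Their summed signal was 465543 to 654543 in BDL and 383912 to 588814 in sham, so the groups overlapped. In a bulk sample fewer cells of a type and less RNA per cell cannot be told apart.

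**Figure D2:**
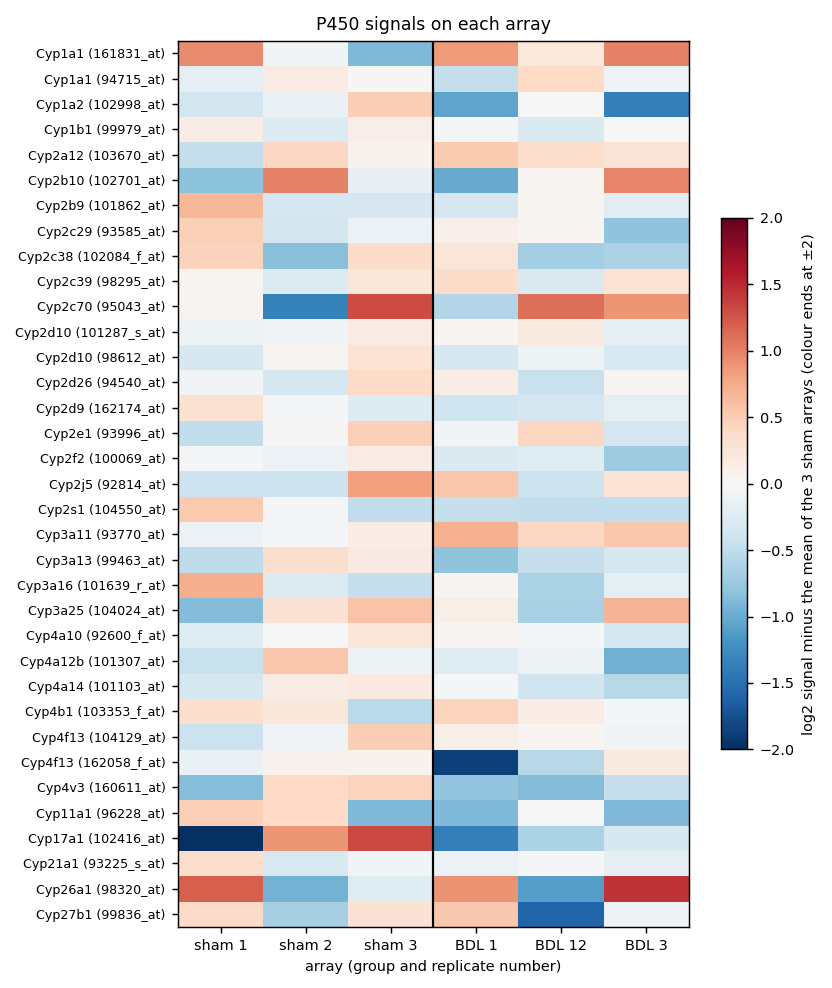
Log2 signal of each tested P450 probe set on each array, minus the mean of the 3 sham arrays, with the arrays in columns and red for higher and blue for lower values. Cyp3a11 is red on all 3 BDL arrays and Cyp2f2 blue on all 3, whereas Cyp2b10, Cyp2c70, Cyp17a1 and Cyp26a1 vary as widely within a group as between the groups.

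Family 3 held the member with the smallest p. Cyp3a11 read 91092.5, 73954 and 80251 in BDL and 51051, 54061 and 61487 in sham. The lowest BDL signal was above the highest sham signal, with little spread in either group. The log2 difference was 0.56 (SE 0.27; 95% interval -0.07 to 1.18; limma adjusted p = 0.832). A second probe set, which carries the symbols of both Cyp3a11 and Cyp3a16 and is no member, read 71282, 75932 and 84682 in BDL and 38558, 50351 and 60239 in sham. Its groups were apart as well, and its difference was 0.66 (SE 0.30; limma adjusted p = 0.832). These probe sets share a gene and the same 6 RNA samples, so they are no independent measurements. The difference of Cyp3a11 stayed positive under all 17 alternatives, from 0.32 after quantile normalization to 0.63 without sham replicate 3. With its groups apart and far above the floor, leaving out 1 array or changing the floor or filter could not reverse its direction. Those alternatives therefore show only how the size of the difference moved.

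The other members of family 3 did not follow Cyp3a11. Cyp3a13, a steroid and drug hydroxylase also found in the intestine, read 12605, 15943 and 17148 in BDL and 15444, 27462 and 24911 in sham, a difference of -0.54 (SE 0.33). Its BDL signals lay around the level of sham replicate 1 and below the other sham arrays, so the groups overlapped; without sham replicate 1 the difference was -0.79. Cyp3a25 differed by 0.05 (SE 0.48), with signals from 8502 to 21125 in BDL and from 7244 to 19770 in sham. Cyp3a16, a form known from fetal and newborn liver, read 406, 253 and 344 in BDL and 647, 325 and 285 in sham, and differed by -0.25 (SE 0.39). The family's median difference was -0.10 over its 4 probe sets, and it turned to 0.16 without BDL replicate 12.

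**Figure D3:**
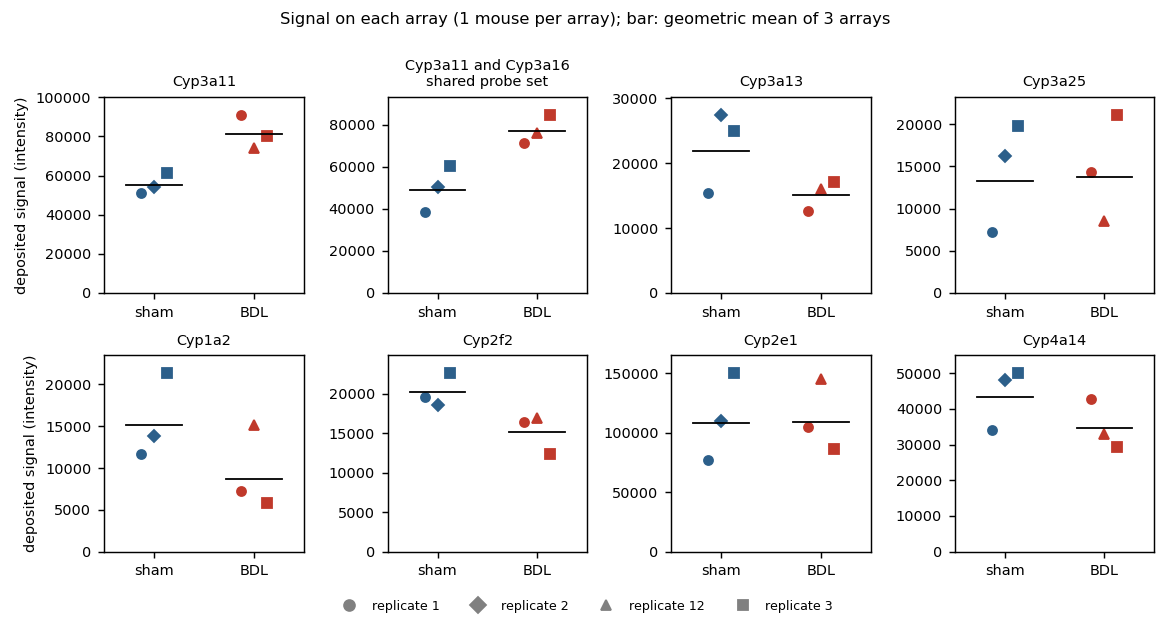
Deposited signal of 8 probe sets on each array, sham in blue and BDL in red, with the marker shape giving the replicate number and the bar the geometric mean of the 3 arrays; each axis starts at 0. The groups do not overlap for Cyp3a11, for the probe set shared by Cyp3a11 and Cyp3a16, and for Cyp2f2, and they overlap for Cyp3a13, Cyp3a25, Cyp1a2, Cyp2e1 and Cyp4a14.

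Family 1, the classical AhR targets, was represented by 4 tested probe sets for 3 genes. Cyp1a2 read 7265, 15144 and 5853 in BDL and 11725, 13889 and 21339 in sham. BDL replicate 12 lay among the sham signals, and the other BDL mice lay below all of them. The difference was -0.81 (SE 0.42; 95% interval -1.77 to 0.15; limma adjusted p = 0.832), and without BDL replicate 12 it was -1.22. Cyp1a1, which oxidizes polycyclic aromatic hydrocarbons, had probe sets that disagreed. The brighter one read 506, 325 and 561 in BDL and 539, 271 and 126 in sham, a difference of 0.68 (SE 0.47), and the other differed by -0.05 (SE 0.32) at signals of 148 to 280. Only sham replicates 2 and 3 were below the BDL signals of the first of these, and sham replicate 1 was not; without it the difference was 1.15. Cyp1b1, a form known mainly outside the liver, read 73.7 to 189 in BDL and 155 to 207 in sham, next to the floor, and differed by -0.11 (SE 0.29). Its second probe set was under the floor on all 6 arrays.

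In subfamily Cyp2c, whose enzymes oxidize drugs and arachidonic acid, all 4 members were above the floor on every array. Cyp2c29 read 1998, 1902 and 1064 in BDL and 2595, 1448 and 1716 in sham, and differed by -0.22 (SE 0.37). Cyp2c38 differed by -0.36 (SE 0.44) and Cyp2c39 by 0.12 (SE 0.31). Cyp2c70, the enzyme that makes muricholic acids in mice, ranged from 5230 to 16911 in BDL and from 3066 to 19322 in sham, the widest range of family 2. Its difference of 0.47 (SE 0.69) was small against that spread, and it was -0.21 without sham replicate 2. Probe sets with several Cyp2c symbols gave -0.69 (SE 0.42) for Cyp2c50 and Cyp2c37 and -0.33 (SE 0.35) for Cyp2c40, Cyp2c67, Cyp2c68 and Cyp2c69, with overlapping groups.

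Subfamily Cyp2d had a median difference of -0.16 over 4 tested probe sets, 1 positive and 3 negative, all with overlapping groups. Cyp2d10 was read by 2 probe sets, at 76515 to 99477 in BDL and 81527 to 98168 in sham for the brighter one, with differences of 0.01 (SE 0.28) and -0.24 (SE 0.29). Cyp2d26 differed by -0.09 (SE 0.32). Cyp2d9, a male-biased testosterone hydroxylase, read 2725, 2834 and 3163 in BDL and 4418, 3496 and 2986 in sham, a difference of -0.31 (SE 0.29). The probe set shared by Cyp2d9 and Cyp2d12 differed by -0.08 (SE 0.34). The intervals of all 4 Cyp2d members lay within 2-fold, so a change of these signals beyond 2-fold lay outside the 95% limits.

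Cyp2e1, the ethanol and acetaminophen oxidizing enzyme of pericentral hepatocytes, read 104374, 144882 and 85938 in BDL and 77015, 109918 and 149840 in sham. The groups covered the same range, and the difference was 0.01 (SE 0.36; 95% interval -0.80 to 0.82). Cyp2f2, a marker of periportal hepatocytes in mice, read 16475, 16984 and 12314 in BDL and 19556, 18599 and 22607 in sham. Each BDL signal was below each sham signal, and the difference was -0.42 (SE 0.29; 95% interval -1.07 to 0.23; limma adjusted p = 0.834). It stayed negative under all 17 alternatives, from -0.56 to -0.27. As for Cyp3a11, the groups were apart and far above the floor, so leaving out 1 array or changing the floor or filter could not reverse its direction. Cyp2a12, a steroid hydroxylase, differed by 0.38 (SE 0.32): sham replicate 1 was lowest at 19996, and the other signals ran from 29093 to 39995. The probe set shared by Cyp2a4 and Cyp2a5 differed by -0.05 (SE 0.73), with signals from 8105 to 59564 in BDL and from 10973 to 37526 in sham.

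Subfamily Cyp2b holds the classical phenobarbital-inducible genes. Cyp2b10, the standard target of CAR, read 2786, 5777 and 11031 in BDL and 3191, 11189 and 5004 in sham. Mice of the same group were 3.96-fold apart in BDL and 3.51-fold apart in sham, and the difference between the groups was -0.003 (SE 0.59), smaller than that spread. Cyp2b9, a female-biased form, was near the floor and differed by -0.17 (SE 0.35). Cyp2b13 and Cyp2b19 were not tested, with 1 and 2 arrays above the floor, sham replicate 1 among them each time. Cyp2j5, an arachidonic acid epoxygenase, was near the floor and differed by 0.13 (SE 0.43). Its relative Cyp2j6 was above the floor only on sham replicate 1. Cyp2s1, known from epithelia, was also near the floor, with 2 BDL signals and 1 sham signal under it. It read 155, 116 and 96.9 in BDL and 310, 212 and 83.8 in sham, a difference of -0.49 (SE 0.33). The median difference over the 15 tested probe sets of family 2 was -0.09, with 6 positive and 9 negative.

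Family 4, which adds a hydroxyl group to the end of fatty acid chains, had the lowest median of the families with at least 3 tested probe sets. It was -0.33 over 7 probe sets, of which 2 were positive, 0 apart and 0 under an unadjusted p of 0.05. With 1 array left out it ran from -0.50 without sham replicate 1 to -0.16 without sham replicate 2. The family's median deviation from the sham mean was -0.03, -0.11 and -0.35 on the BDL arrays. On the sham arrays it was -0.35, 0.14 and 0.20, so the groups overlapped. The PPAR alpha targets Cyp4a10 and Cyp4a14 differed by -0.11 (SE 0.29) and -0.33 (SE 0.31). Cyp4a14 read 42671, 32978 and 29419 in BDL and 34148, 47989 and 49974 in sham, so that BDL replicate 1 lay above sham replicate 1. Cyp4a12b, a male-biased form, differed by -0.44 (SE 0.37), and the probe set shared by Cyp4a31 and Cyp4a32 by -0.82 (SE 0.53), with BDL replicate 3 lowest at 975. Cyp4v3, a fatty acid hydroxylase, read 7968, 7570 and 10061 in BDL and 7671, 18277 and 18756 in sham. Sham replicate 1 lay among the BDL signals, the other sham mice lay well above them, and the difference was -0.71 (SE 0.40), or -1.13 without sham replicate 1. Cyp4f13 probe sets disagreed, at 0.03 (SE 0.32) for the brighter and -0.75 (SE 0.49) for the other, whose BDL signals were 220, 548 and 905. Cyp4b1 differed by 0.18 (SE 0.34), and its probe set shared with a pseudogene by 0.65 (SE 0.35).

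The remaining families act on steroids, vitamin D and retinoic acid. Cyp17a1, the steroid 17-alpha-hydroxylase, had the widest range of all tested members, 11.4-fold between the arrays. It read 548, 914 and 1125 in BDL and 307, 2605 and 3513 in sham. Sham replicate 1 was the lowest of the 6 mice and the other sham mice were the highest, and the difference of -0.77 (SE 0.82) became -1.87 without sham replicate 1 and -0.11 without sham replicate 3. Cyp26a1, which breaks down retinoic acid, read 707, 177 and 1038 in BDL and 872, 198 and 321 in sham, and differed by 0.41 (SE 0.73). Cyp27b1, the vitamin D 1-alpha-hydroxylase, differed by -0.39 (SE 0.55). Cyp24a1, which inactivates vitamin D, was not tested: 1 of its probe sets was under the floor on every array, and the other read 212, 376 and 132 in BDL and 124 to 139 in sham.

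Cyp11a1, the cholesterol side-chain cleavage enzyme, and Cyp21a1, the steroid 21-hydroxylase, are known as adrenal and gonadal enzymes. Cyp11a1 was above the floor on 3 arrays, at 284 in BDL replicate 12 and 394 and 374 in sham replicates 1 and 2, and differed by -0.59 (SE 0.45). Cyp21a1 read 3692 to 4111 in BDL and 3377 to 5336 in sham, and differed by -0.10 (SE 0.29). Star, the steroidogenic cholesterol transporter used as a marker of adrenal cortex, read 422 to 475 in BDL and 327 to 2394 in sham, highest on sham replicate 1. The Cyp21a1 probe set carries a suffix that marks probes shared by several transcripts, so the source of its signal was not settled by these arrays. The second Cyp17a1 probe set was above the floor only on sham replicate 1.

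Members were also grouped by what is known to induce them, by sex bias and by zone of the liver lobule. No test of a group's direction was run. These groups were written with earlier results of these data known, and each gene enters through its brighter probe set. Of genes inducible through CAR or PXR, 8 were tested, 3 positive and 5 negative, with a median of -0.09, from Cyp3a13 at -0.54 to Cyp3a11 at 0.56. The 3 tested PPAR alpha targets were all negative, with a median of -0.33. The 3 AhR targets had a median of -0.11 and ranged from Cyp1a2 to Cyp1a1. The 8 tested female-biased genes had a median of -0.14, and the male-biased Cyp2d9 and Cyp4a12b one of -0.37. Pericentral genes had a median of -0.11 over 4 members, spread from Cyp1a2 at -0.81 over Cyp2c29 and Cyp2e1 to Cyp3a11. The 2 periportal genes, Cyp2f2 and Cyp17a1, were at -0.42 and -0.77. None of these genes was under an unadjusted p of 0.05.

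Promoter sequences are shown for Cyp3a11 and Cyp2f2, the members whose groups were apart, and for Cyp1a2, the member with the widest difference. Each is the 200 bases before the transcript start, on the gene's strand, from RefSeq on GRCm38.p6. Capitals mark matches on either strand to the motifs searched: the TATA box TATAAA, the nuclear receptor hexamers AGGTCA and AGTTCA, the AhR core GCGTG, the C/EBP site TTGCNNAA and the HNF1 consensus. A hexamer on the other strand reads TGACCT or TGAACT, and a TATA box TTTATA.
Cyp3a11, chr5:145879855-145880054, minus strand: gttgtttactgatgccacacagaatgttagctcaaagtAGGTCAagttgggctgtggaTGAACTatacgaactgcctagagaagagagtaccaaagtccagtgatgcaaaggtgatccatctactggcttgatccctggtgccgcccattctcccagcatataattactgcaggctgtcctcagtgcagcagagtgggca
Cyp2f2, chr7:27119755-27119954, plus strand: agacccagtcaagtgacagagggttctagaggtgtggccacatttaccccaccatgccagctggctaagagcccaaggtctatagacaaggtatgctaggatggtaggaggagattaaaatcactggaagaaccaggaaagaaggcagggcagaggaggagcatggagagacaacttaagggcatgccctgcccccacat
Cyp1a2, chr9:57683656-57683855, minus strand: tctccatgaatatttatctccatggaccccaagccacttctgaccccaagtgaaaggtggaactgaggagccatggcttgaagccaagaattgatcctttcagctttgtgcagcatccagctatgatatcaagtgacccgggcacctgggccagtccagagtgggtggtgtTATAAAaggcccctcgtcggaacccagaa

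The Cyp3a11 window held an AGGTCA 162 bases and a TGAACT 142 bases before the start, and the Cyp1a2 window a TATA box 29 bases before it. The Cyp2f2 window held none of the motifs. Windows were found for 30 of the 36 member genes. A TATA box was found in those of 12 genes, among them Cyp1a1, Cyp1a2, Cyp2e1 and all 3 Cyp2d genes, where 9.96% of all 32851 windows held it. AGGTCA was found for 10 genes (11.4% of all windows), AGTTCA for 5 (9.28%), GCGTG for 4, Cyp1a1 and Cyp1b1 among them (24.7%), TTGCNNAA for 6 (7.47%) and the HNF1 consensus for 0 (0.0548%). Genes were counted if any of their windows matched, and some had several windows, whereas the percentages are of single windows. A match is a description of the letters and not a binding site.

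Most P450 genes lie next to relatives that arose by duplication. In RefSeq's gene order, 28 of the 36 member genes had another P450 gene within 5 protein-coding genes, in 9 clusters. Differences within a cluster had no common direction. In the cluster of Cyp2a12, Cyp2b10, Cyp2b13, Cyp2b19, Cyp2b9, Cyp2f2 and Cyp2s1, the 5 tested probe sets ran from -0.49 to 0.38 with 1 positive. In that of Cyp3a11, Cyp3a16 and Cyp3a25 they ran from -0.25 to 0.56. Such relatives have similar sequences, and 10 of the 42 member probe sets carry a suffix in place of the plain name: 5 with f and 2 with s, for probes shared within a family or among transcripts, and 3 with r, for which some selection rules were dropped. Signals of close relatives may therefore be mixed.

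Genes that serve the P450 enzymes were compared from lists written with earlier results of these data known. Por, the gene of P450 oxidoreductase, had no probe set with its symbol alone, so it is not among the redox partners tested. Of 6 tested redox partners, 2 were positive and 0 were under an unadjusted p of 0.05, with a median of -0.29. Of these 6, 2 were apart as lower, as were 4.32% of all tested probe sets. Cyb5r3, the cytochrome b5 reductase, read 10608, 10776 and 9677 in BDL and 11789, 11850 and 13240 in sham, a difference of -0.25 (SE 0.27). Pgrmc2, a heme-binding membrane protein, also apart, differed by -0.97 (SE 0.44), with BDL replicate 12 under the floor. Fdx1, the mitochondrial ferredoxin, differed by -0.34 (SE 0.32).

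Heme synthesis had 9 tested genes, 3 of them positive, with a median of -0.24 and 0 under an unadjusted p of 0.05. Urod, uroporphyrinogen decarboxylase, read 1773, 2137 and 2058 in BDL and 3137, 3076 and 2662 in sham. It was apart as lower, as were 4.32% of all tested probe sets, and differed by -0.57 (SE 0.27; limma adjusted p = 0.832). Cpox, the enzyme that follows it, differed by -0.63 (SE 0.35) and Uros by -0.72 (SE 0.47), both with overlapping groups. Alas1, the first enzyme of the pathway in liver, was chosen after its values were seen: it read 41772, 99837 and 21535 in BDL and 33967, 57994 and 28446 in sham, a difference of 0.23 (SE 0.55). In heme breakdown 0 of 3 tested genes passed the adjusted threshold. At an unadjusted p under 0.05, 1 gene was higher, as were 3.4% of all tested probe sets. The gene was Hmox1, heme oxygenase 1, whose sham signals lay between 3719 and 4132 and whose BDL signals were 19149.5, 4621 and 8974. Blvra, a biliverdin reductase, differed by -0.28 (SE 0.30) and Hmox2 by 0.08 (SE 0.47).

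Of 20 tested receptors and regulators of P450 genes, 8 were positive, with a median of -0.04, and 1 was lower and 0 higher at an unadjusted p under 0.05. Over all tested probe sets 2.39% were lower and 3.4% higher at that p. The lower gene was Cebpa, a hepatocyte transcription factor, at -1.02 (SE 0.32; limma adjusted p = 0.832). Nr1i2, which encodes PXR, read 2207, 2077 and 1567 in BDL and 1527, 1673 and 891 in sham, a difference of 0.55 (SE 0.34) with overlapping groups. Nfe2l2, which encodes the stress regulator NRF2, differed by 1.06 (SE 0.67). Among 9 other oxidizing and hydrolysing enzymes of drug metabolism, 4 were positive and 0 were under an unadjusted p of 0.05. Fmo5, a flavin monooxygenase, differed by 0.76 (SE 0.43), and the carboxylesterases Ces1d and Ces1g by -1.18 (SE 0.61) and 0.57 (SE 0.50). Among 10 tested enzymes of glucuronidation and sulfation, 3 were positive. At an unadjusted p under 0.05, 1 was lower: Sult2b1, a hydroxysteroid sulfotransferase, at -1.04 (SE 0.40). Sult2b1 read 240, 54.1 and 310 in BDL and 671, 491 and 299.5 in sham. Its groups overlapped, BDL replicate 12 was under the floor, and sham replicate 1 was highest. Of all tested probe sets 2.39% were lower at that p. The sulfotransferases Sult1a1 and Sult5a1 differed by 0.85 (SE 0.47) and -0.36 (SE 0.31).

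**Figure D4:**
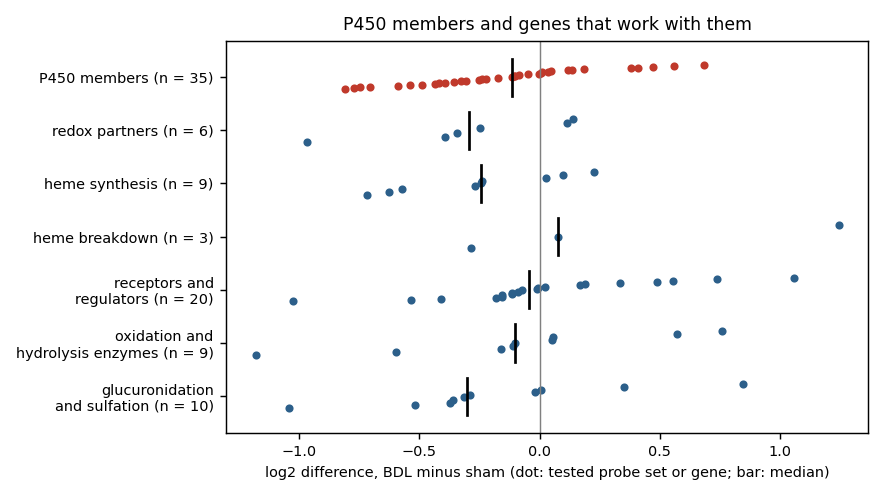
Log2 difference between BDL and sham for the 35 tested P450 probe sets (red) and the tested genes of 6 lists that work with them (blue), with a black bar at the median. The P450 members lie between -0.81 and 0.68, and single partner genes such as Hmox1, Ces1d and Sult2b1 lie farther from 0.

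Markers of other cells were read beside these values. Of 51 marker genes on the array in 11 lists, hepatocyte genes included, 47 were tested. An unadjusted p under 0.05 was reached by 6 that were higher in BDL and 2 that were lower, beside 3.4% and 2.39% of all tested probe sets. The higher ones were Cd14 and Tyrobp (macrophage), Fcgr2b and Cdh5 (liver endothelial), S100a9 (neutrophil) and Acta2 (stellate cell). Positive were 4 of 5 tested endothelial, 2 of 6 neutrophil and 3 of 5 stellate cell markers. Macrophage and Kupffer cell markers had 6 of 8 positive and a summed signal of 10813 to 36137 in BDL against 4593 to 11277 in sham. Most of the highest sums came from Cd14, a coreceptor for bacterial lipopolysaccharide, which read 1873, 29692 and 15816 in BDL and 717, 4568 and 1176 in sham. Without Cd14 the other 7 genes summed to 6446 to 8940 in BDL and 3417 to 6709 in sham, and the groups overlapped. Lymphocyte markers had 1 of 4 tested genes positive. The 6 genes on the array summed to 1804 to 2088 in BDL against 2290 to 6392 in sham. Among the tested ones only Ms4a1 was apart, at 740, 951 and 891.5 in BDL and 1462, 1534 and 1399 in sham. Without Ms4a1 the sums of the groups overlapped. Cd79a read 3161 on sham replicate 1 and 1189 and 632 on the other sham arrays. Of the cholangiocyte markers Epcam and Krt7 were not tested, and Krt19 differed by 0.32 (SE 0.35). Of the 7 tested hepatocyte markers 4 were positive, with a median of 0.17. Only Ttr among them was under an unadjusted p of 0.05, at -1.25 (SE 0.36; limma adjusted p = 0.830). The part of these markers in the P450 values was not tested.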

How the data were processed

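Each array gave 1 deposited intensity per probe set, linear and above 0. The authors used Affymetrix software, namely GeneChip 3.1 with MicroArray Suite 4.0, per the series' design text; settings, scaling target and background correction were not found in the labels. The mean after trimming 2% at each end was 1501 on every array, so the scaling was kept. Intensities under 152.7, the 25th percentile, were raised to this floor before log2, which can shrink or enlarge differences of dim probe sets. After leaving out 66 control probe sets and 2880 with fewer than 3 arrays above the floor, 9542 of 12488 were fitted, BDL minus sham, with lmFit and eBayes (limma 3.58.1, R 4.3.3). P-values were adjusted by Benjamini-Hochberg over all 9542, with a threshold of 0.05. SE and 95% intervals are limma's moderated ones. The fit was tested on simulated data.

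Gene identifiers of the platform annotation were looked up in RefSeq, and 10817 of 10833 single-symbol probe sets matched. List genes with several probe sets enter through the brightest. The files name no genome build, so coordinates are given for RefSeq promoters only. Named genes are the members and, in each partner list, up to 3 genes with the smallest p; any others are marked in the text or belong to the marker lists. The members and lists were chosen with earlier results of these data known. The design text gives 1 mouse per array, so replicates are separate mice. Alternatives were the normalization, scaling, floor, filter, variance model, array weights, each array left out and the replicate number as a block. The number of arrays limits the precision, and no batch was named in the labels.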

Additional observations from a re-analysis of the deposited data

How the results depend on the processing

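No P450 member passed the adjusted threshold under any of the 17 alternatives; the lowest adjusted p of limma was 0.368, for Cyp11a1 without sham replicate 3. Of 583 member values under alternatives, 532 kept the direction and 51 reversed, and 15 of the 35 members kept it in every alternative that gave a value. Dim members gave no value where the filter at the 50th percentile dropped them or where both groups were at a raised floor. Without a filter 3 probe sets of all passed, 0 of them members. Members higher at an unadjusted p under 0.05 numbered 1 with a floor at the 40th percentile, 1 without a filter, both times Cyp3a11, and 2 with array weights (Cyp1a1 and Cyp3a11); members lower numbered 5 with array weights (Cyp1a2, Cyp3a13, Cyp4a12b, Cyp4v3 and Cyp11a1). Leaving out 1 array gave 0 to 1 higher and 0 to 3 lower, the most without sham replicate 1. The count of all probe sets at an unadjusted p under 0.05 ran from 308 without BDL replicate 3 to 1176 without sham replicate 3, with 552 in the fit of all arrays, 362 with a filter at the 50th percentile and 1023 with array weights.

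The members' median ran from -0.25 without sham replicate 2 to -0.10 without sham replicate 3. The family 2 median was -0.21 after quantile normalization and ran from -0.22 to -0.088 with 1 array left out, again lowest without sham replicate 2. The family 1 median was -0.26 with a floor at the 10th percentile and -0.81 with a filter at the 50th, which left Cyp1a2 alone. Quantile normalization reversed Cyp1a1 (dimmer probe set, 0.031), Cyp2b10 (0.00082), Cyp2d10 (brighter, -0.22) and Cyp2e1 (-0.20), and a floor at the 40th percentile Cyp2j5 (-0.044). Array weights reversed Cyp1b1 (0.069), Cyp2c38 (0.041), Cyp2d10 (brighter, -0.035), Cyp2d26 (0.13), Cyp2e1 (-0.15), Cyp21a1 (0.029), Cyp27b1 (0.15), Hmox2 (-0.48) and the probe set of Cyp2a5 and Cyp2a4 (0.22). The cause was not tested.

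With 1 array left out, reversed differences ran from -0.27 to 0.16 for the dimmer Cyp1a1 probe set, -0.49 to 0.50 for Cyp2b10, -0.34 to 0.16 for Cyp2b9, -0.41 to 0.067 for Cyp2c29, -0.024 to 0.32 for Cyp2c39, -0.21 to 1.12 for Cyp2c70, -0.079 to 0.11 for the brighter Cyp2d10 probe set, -0.26 to 0.11 for Cyp2d26 and -0.23 to 0.25 for Cyp2e1. They ran from -0.074 to 0.55 for Cyp2j5, -0.48 to 0.11 for Cyp3a16, -0.39 to 0.39 for Cyp3a25, -0.23 to 0.011 for Cyp4a10, -0.086 to 0.34 for Cyp4b1, -0.18 to 0.28 for the brighter Cyp4f13 probe set, -0.25 to 0.078 for Cyp21a1, -0.11 to 1.17 for Cyp26a1 and -0.86 to 0.21 for Cyp27b1. For Hmox2 they ran from -0.33 to 0.49, for Cyp2a5 and Cyp2a4 from -0.75 to 0.68, and for Cyp2d12 and Cyp2d9 from -0.38 to 0.085.

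The groups share the replicate numbers 1 and 3, which the labels do not tie to a litter or day. Same-numbered deviations correlated at 0.21 and 0.25, and BDL replicate 12 with sham replicate 2 at 0.29. All other pairs of a BDL and a sham array were negative, from -0.21 to -0.04. Whether 12 stands for 2 is not stated. The block kept 12 and 2 as separate numbers, so its differences came from replicates 1 and 3 only. With the replicate number as a block 1 member was lower at an unadjusted p under 0.05 (Cyp1a2, -1.28, limma adjusted p = 0.671) and the family 2 median was -0.29. Differences reversed for Cyp2b10 (0.47), Cyp2c70 (-0.53), Cyp2d10 (brighter, -0.11), Cyp2e1 (-0.18) and Cyp4f13 (brighter, -0.0089), and the block changed no call.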
